A study of Homo sapiens with 6 samples.

Results

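In the human cell libraries described here, 49 of the 32322 gene rows of the deposited table held no read in any DMSO library and at least 20 normalized counts in every library of cells given compound 28. A normalized count is the number of reads on a gene divided by a size factor of its library. The 49 genes were chosen on exactly those values, after 49 further rows that met them had been left out by name (clone-based names, LINC, HOX, HIST and MIR genes and 4 single genes). Their level in compound 28 against DMSO is therefore a description and was not tested, and all 49 passed the filter on low values because of the rule. What the rule did not use is their usual tissue, their genomic neighbours and their promoters. Their kind was used in part, through the names left out. Their spread among the compound 28 libraries was limited by the minimum of 20 in each.

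The study treated cells titled MDA-MB-231, an established line of triple-negative breast cancer, with compound 28, which the series title calls a degrader of CDK9. There were 3 libraries of cells given 500 nM of compound 28 for 4 h and 3 libraries of cells given DMSO, the solvent, for which no time is given. All 6 libraries carry the genotype label WT. The cell line label differs from sample to sample, counting up by 1 from MDA-MB-231, while all titles name MDA-MB-231. Whether the replicates came from different cultures is not stated, so the spread between them, and every p-value built on it, may be technical only.

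CDK9, with its cyclin partner, forms P-TEFb, a kinase complex that frees RNA polymerase II paused shortly after the start of a gene and that also acts on factors that couple elongation to the ending of transcription. Most genes that serve 1 tissue, such as hormone receptors, crystallins or muscle actins, are kept silent elsewhere by closed chromatin and by the absence of their activators. A count of reads per gene does not say at which start the RNA began. With counts over whole cultures, fewer cells with the RNA and less RNA per cell cannot be told apart.

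Reads on genes came to 28505897 to 34062330 in the compound 28 libraries and to 37186728 to 54830987 in the DMSO libraries, so that the group in which the 49 genes were silent was the more deeply sequenced. Each single read was worth 1.26 to 1.55 normalized counts in compound 28 and 0.579 to 0.862 in DMSO. Across the table, 6487 of 18278 genes tested (35.5%) were higher in compound 28 and 6813 (37.3%) were lower, with limma at a Benjamini-Hochberg adjusted p under 0.05. With library totals in place of the size factors 4218 were higher and 9302 lower, and with upper-quartile factors 9194 were higher and 4490 lower. The markers went more against the cell line label than with it. All 21 measured genes of a leukocyte and myeloid list reached at least 1 CPM (reads per 1000000 reads on genes) in DMSO, and their summed level was 6883 to 7070 CPM in compound 28 and 6450 to 7142 CPM in DMSO. AZU1, a granule protein of neutrophil precursors, averaged 2002 CPM in compound 28 and 1330 CPM in DMSO, while CAV1, abundant in mesenchymal breast lines, averaged 0.0391 CPM in compound 28 and 0.00692 CPM in DMSO. Of 19 measured genes of the MDA-MB-231 and mesenchymal list, 13 reached 1 CPM in DMSO, and their summed level was 1862 to 1992 CPM in compound 28 and 1562 to 1974 CPM in DMSO. Its most abundant gene, MSN, averaged 1369 CPM in compound 28 and 1045 CPM in DMSO, and CD44 averaged 133 CPM in compound 28 and 286 CPM in DMSO. Among its genes below 1 CPM in DMSO were SPARC with 0.256 CPM, LOX with 0.334 CPM and CTGF with 0.00896 CPM. In DMSO 7 of its 19 genes reached 10 CPM, against 17 of the 21 leukocyte and myeloid genes. Silence of a gene in DMSO is therefore silence in libraries labelled MDA-MB-231 whose markers were more those of leukocytes and myeloid cells. Which cells they were was not tested further.

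The abundant members differ in what precedes their start, and stretches of 100 bases before it show the range. They are printed 5′ to 3′ on the gene's own strand, from RefSeq on GRCh38.p14, with CG dinucleotides in capitals, for the 5 genes with the highest mean and for GHSR, the most abundant gene of the nervous system class. PRR18 lies at chr6:166308393-166308492, minus strand, GREM1 at chr15:32717904-32718003, plus strand, BTLA at chr3:112499473-112499572, minus strand, COLEC11 at chr2:3595012-3595111, plus strand, WFIKKN2 at chr17:50834484-50834583, plus strand and GHSR at chr3:172448457-172448556, minus strand.
PRR18: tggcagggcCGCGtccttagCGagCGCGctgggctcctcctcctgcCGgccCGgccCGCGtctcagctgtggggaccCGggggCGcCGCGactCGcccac
GREM1: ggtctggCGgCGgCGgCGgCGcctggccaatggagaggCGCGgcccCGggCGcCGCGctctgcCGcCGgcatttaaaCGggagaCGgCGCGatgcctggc
BTLA: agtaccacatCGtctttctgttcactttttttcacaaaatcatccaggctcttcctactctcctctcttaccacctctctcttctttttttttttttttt
COLEC11: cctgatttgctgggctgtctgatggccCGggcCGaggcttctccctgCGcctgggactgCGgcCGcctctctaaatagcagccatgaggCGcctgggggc
WFIKKN2: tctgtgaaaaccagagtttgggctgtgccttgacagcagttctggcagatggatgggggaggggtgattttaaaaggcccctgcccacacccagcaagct
GHSR: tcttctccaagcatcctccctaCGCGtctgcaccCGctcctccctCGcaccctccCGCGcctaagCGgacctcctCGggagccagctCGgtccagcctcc
The stretch of GREM1 held 17 CG dinucleotides, that of PRR18 14, that of GHSR 9 and that of COLEC11 6. The stretch of BTLA held 1 and that of WFIKKN2 held 0, so genes silent in DMSO and present after compound 28 included both CG-dense and CG-free starts.

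The 49 genes reached low to moderate levels. Their mean normalized counts in compound 28 ran from 22.1 (OR11M1P) to 388 (PRR18), with a median of 49.7. There were 25 genes with a mean under 50, 14 with a mean of 50 to 100, 8 with a mean of 100 to 200 and 2 above 200. On the CPM scale this was 0.511 to 8.96 CPM. The 49 genes together held 8119 reads in the 3 compound 28 libraries, or 85.7, 104 and 72.8 CPM in replicates 1, 2 and 3. A count of 3 reads over the 3 DMSO libraries, the limit that a count of 0 allows for counting error alone, equals a mean of 0.677 normalized counts. Divided by it, the levels in compound 28 came to 32.7-fold for the lowest member, 73.5-fold for the middle one and 574-fold for PRR18. The rule asked for 0 in DMSO and at least 20 in compound 28, so a high ratio was fixed in advance for every member. The ratios do not allow for that choice.

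PRR18, a proline-rich protein, had 430.4, 352 and 382 normalized counts in compound 28 replicates 1 to 3 and 0 in each DMSO library. All 3 compound 28 libraries lay above every value of the other 48 genes. In the authors' deposited table its log2 fold change was 11.59, a value that depends on how a group at 0 is treated. Divided by annotated exon length, the order of the genes changed. The highest level per kilobase was that of RNA5SP67, a 5S ribosomal RNA pseudogene, with 316 normalized counts per kb, followed by FAM213AP2 with 130.0, PRR18 with 123 and GHSR with 106, against a median of 30.0.

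**Figure D1:**
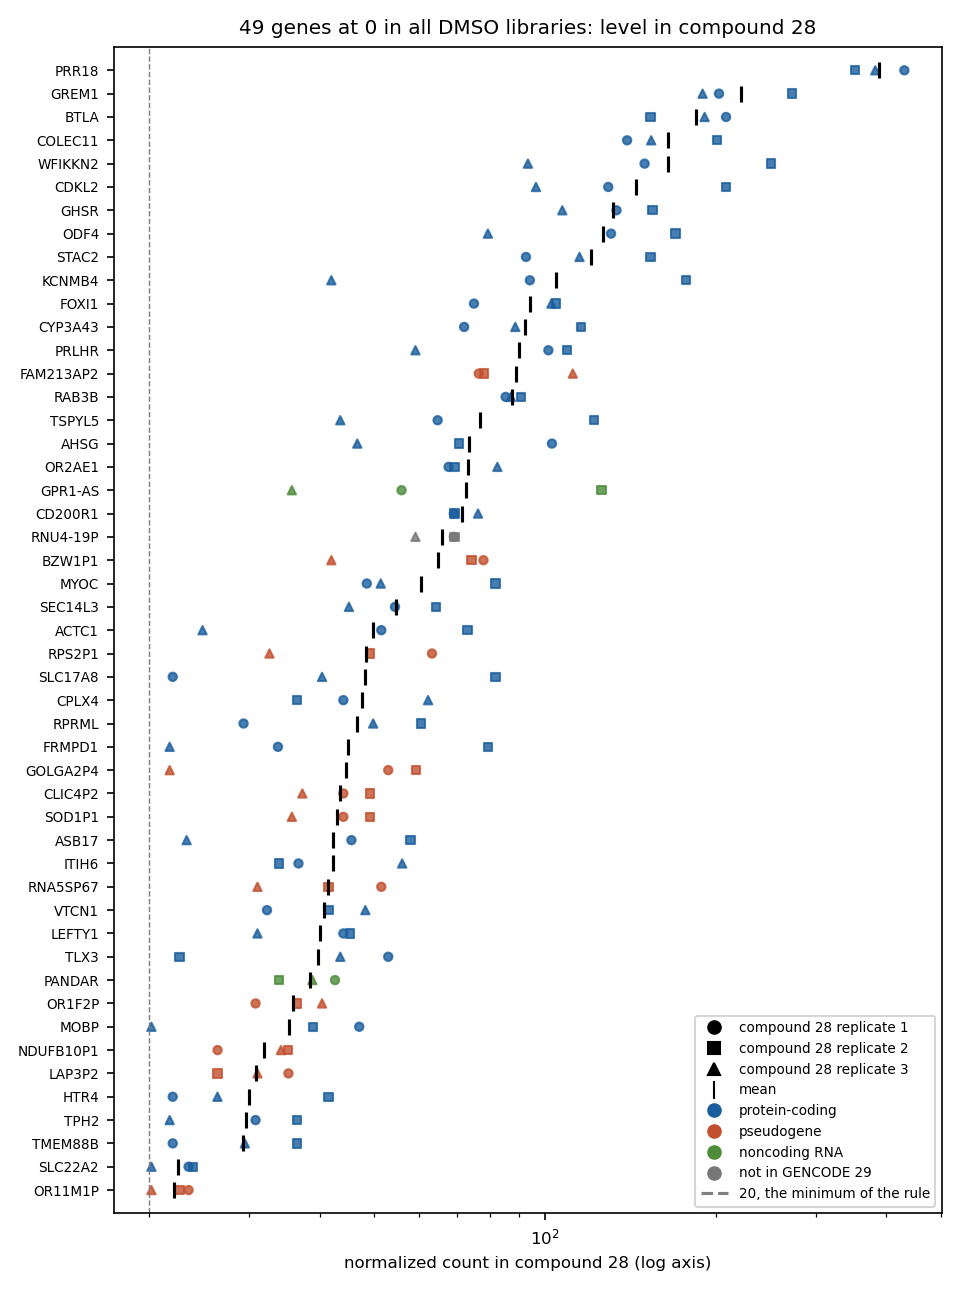
Normalized counts (log axis) of the 49 genes in compound 28 replicates 1, 2 and 3 (circles, squares and triangles), with the mean as a bar and the colour giving the kind of gene; all DMSO values are 0 and are not drawn. The genes run from PRR18, with a mean of 388, to OR11M1P, with a mean of 22.1, and the squares of replicate 2 are the rightmost symbol of 31 genes.

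By their usual site of expression, 24 of the 49 genes fell into 8 classes assigned by hand from textbook knowledge, and no class held most of them. The classes were assigned after the members were known and left blank where unsure. Other genes were not classed, so the size of a class does not show a lean to a tissue. The largest class, with 10 genes, was that of the nervous system and of cells that secrete hormones. It held 3 receptors of hormones or transmitters. GHSR, the receptor of the stomach hormone ghrelin, had 134, 155 and 107 normalized counts in compound 28 and 0 in all 3 DMSO libraries. PRLHR, the receptor of prolactin-releasing peptide, had 101, 109 and 59.1 in compound 28 and 0 in DMSO. In both receptor genes the third compound 28 library was the lowest. The receptor HTR4, for serotonin, averaged 30.0 in compound 28.

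Channel and vesicle genes made up a further group of the class. STAC2, an adaptor of voltage-gated calcium channels, had 92.5, 153 and 115 normalized counts in compound 28 against 0 in DMSO. KCNMB4, the neuronal beta subunit of the BK potassium channel, had 94.0, 177 and 41.97 in compound 28 against 0 in DMSO, which made it the most unequal of the 49 genes, with its highest library 4.23 times its lowest. RAB3B, a GTPase of secretory vesicles, was among the most even, with 85.2, 90.6 and 87.0 in compound 28 against 0 in DMSO. SLC17A8, which loads glutamate into synaptic vesicles, had 22.03, 81.8 and 40.4 in compound 28 against 0 in DMSO, a 3.71-fold spread. The remaining members of the class were TLX3, a homeobox factor of sensory neurons with a mean of 39.7 in compound 28, MOBP, a myelin protein with 35.4, and TPH2, the enzyme of serotonin synthesis in neurons, with 29.7.

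Developmental signals and immune receptors gave 4 members, of which GREM1 and BTLA were among the most abundant. GREM1, a secreted antagonist of bone morphogenetic proteins, had 203, 273 and 189.6 normalized counts in compound 28 and 0 in DMSO. LEFTY1, an antagonist of Nodal, averaged 40.1 in compound 28. BTLA, an inhibitory receptor of lymphocytes, had 209, 153 and 191 in compound 28 and 0 in DMSO, and it was 1 of 7 genes whose lowest library was replicate 2. CD200R1, the receptor through which CD200 restrains myeloid cells, had 69.0, 69.2 and 76.2 in compound 28 and 0 in DMSO. BTLA and CD200R1 were thus at 0 in DMSO in libraries in which the leukocyte and myeloid list was abundant.

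Liver and kidney gave 4 members. COLEC11, a collectin that binds sugars on microbes, had 139.5, 201 and 154 normalized counts in compound 28 and 0 in DMSO. AHSG, the plasma protein fetuin-A, had 103, 70.4 and 46.6 in compound 28 and 0 in DMSO, and its highest library was replicate 1, in which COLEC11 was lowest. FOXI1, the transcription factor of acid-secreting kidney and inner ear cells, had 74.9, 104 and 103 in compound 28 and 0 in DMSO. SLC22A2, an organic cation transporter of the kidney tubule, was close to the threshold with 23.5, 23.9 and 20.2 in compound 28.

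Testis, muscle and the sense organs gave the rest of the classes. ODF4, a protein of the outer dense fibres of the sperm tail, had 131, 169.8 and 79.3 normalized counts in compound 28 and 0 in DMSO. ACTC1, the actin of heart muscle, had 51.4, 73.0 and 24.9 in compound 28 and 0 in DMSO. OR2AE1, an olfactory receptor, had 67.6, 69.2 and 82.4 in compound 28 and 0 in DMSO. MYOC, the myocilin of the drainage tissue of the eye, had 48.5, 81.8 and 51.3 in compound 28 and 0 in DMSO. ASB17 of the testis averaged 42.2 and CPLX4, a complexin of retinal synapses, 47.6 in compound 28.

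Of the genes left without a class, several were as abundant. WFIKKN2, a secreted protein that binds the growth factors myostatin and GDF11, had 149.8, 250.3 and 93.3 normalized counts in compound 28 and 0 in DMSO. CDKL2, a kinase related to the cyclin-dependent kinases, had 129, 209 and 96.4 in compound 28 and 0 in DMSO. Both were highest in replicate 2 and lowest in replicate 3. CYP3A43, a cytochrome P450, had 72.0, 116 and 88.6 in compound 28 and 0 in DMSO, and TSPYL5, of the nucleosome assembly protein family, had 64.6, 122 and 43.5. SEC14L3, a lipid-binding protein, had 54.3, 64.1 and 45.1 in compound 28 and 0 in DMSO. FRMPD1, a scaffold protein, was the third of the unequal genes with 33.8, 79.2 and 21.8 in compound 28, a spread of 3.64-fold.

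Wider lists of genes of single tissues, each with few genes, show how the members stand among genes of the same kind. The muscle list had 19 genes in the table, of which ACTC1 was a member. Of its 12 tested genes 9 were higher in compound 28 and 1 was lower (background 35.5% higher and 37.3% lower), with a median log2 change of 2.39. Of 9 tested genes of the liver list, 8 were higher and 1 was lower, with a median of 3.69, and 4 of its 13 genes in the table, AHSG among them, were at 0 in all DMSO libraries. The pancreas and gut list had 4 of 4 tested genes higher. Other lists were more even. The neuron list held no member, and of its 8 tested genes 2 were higher and 3 were lower. The embryonic patterning list had 3 higher and 3 lower of 9 tested genes, the glia list 2 and 2 of 4, and the skin list 0 and 1 of 1. The kidney list had 1 of 4 tested genes higher and 0 lower, the steroid organ list 2 of 5 and 0, the retina list 3 and 1 of 5, and the germline list 2 and 1 of 3. The median over all genes tested was -0.03. ACTC1 and AHSG are themselves counted among the higher genes, and their calls follow from the rule. In DMSO only 6 of the 19 muscle genes, 2 of the 13 liver genes and 1 of the 9 pancreas and gut genes reached 1 CPM. A gene near 0 in DMSO passes the filter on low values only through compound 28, so its call of higher is set by that filter. The counts of these 3 lists are therefore descriptions and no support for a shift of a tissue.

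The compound 28 libraries were not alike for these genes. Replicate 2 was the highest library for 31 of 49 genes (63.3%) and replicate 3 the lowest for 26 (53.1%). Over 7458 other genes of like mean, replicate 2 was the highest for 38.3% and replicate 3 the lowest for 38.7%. The median coefficient of variation over the 3 libraries was 24.6% for the 49 genes and 22.9% for the 20 other genes nearest in mean to each. The rule's minimum of 20 in each library limits the spread of members with a low mean. The other genes had no such minimum, so these medians are not a comparison of like with like. Reads that fell on no annotated gene, per 100 reads on genes, were 23.5, 24.8 and 20.2 in compound 28 replicates 1 to 3 and 16.9, 18.0 and 14.3 in DMSO replicates 1 to 3. Replicate 2 was thus also the highest and replicate 3 the lowest of the compound 28 libraries in reads outside genes, and the part of this in the members' levels was not tested.

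By kind, 35 of the 48 genes found in GENCODE release 29 were protein-coding (72.9%), against 52.0% of all matched rows and 25.3% of the other genes at 0 in all DMSO libraries. Pseudogenes numbered 11 (22.9%), against 17.9% and 33.7%. The 2 noncoding RNAs were GPR1-AS, an antisense transcript of an imprinted locus, and PANDAR, a long noncoding RNA next to the CDKN1A gene. GPR1-AS had 55.8, 126 and 35.7 normalized counts in compound 28 and 0 in DMSO. GPR1, on the other strand of the same locus, had 29.4, 55.3 and 10.9 in compound 28 and 0 in DMSO, with the same order of libraries. RNU4-19P, a U4 small nuclear RNA pseudogene by its symbol, was not found in that annotation and had 69.0, 69.2 and 59.1 in compound 28 and 0 in DMSO. The names excluded by the rule remove many noncoding genes, so the share of protein-coding genes depends in part on the rule.

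Reads of a processed pseudogene can come from its parent gene, so these values are uncertain. FAM213AP2 had 76.4, 78.0 and 112 normalized counts in compound 28 and 0 in DMSO, while its parent FAM213A averaged 322 in compound 28 and 314 in DMSO. BZW1P1 had 77.9, 74.2 and 41.97 in compound 28 and 0 in DMSO, while BZW1 averaged 8231 in compound 28 and 5126 in DMSO. RPS2P1 averaged 48.3 in compound 28 and was at 0 in DMSO, although RPS2, a ribosomal protein gene, averaged 214899 in compound 28 and 104000 in DMSO. CLIC4P2 and NDUFB10P1 were at 0 in DMSO, where their parents had the higher mean. CLIC4 averaged 5868 in compound 28 and 7055 in DMSO, and NDUFB10 averaged 1767 in compound 28 and 2020 in DMSO. The parents were named after their values were seen.

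The gene before a member on the same strand was often an expressed one. The nearest upstream gene on the same strand reached at least 1 CPM in DMSO for 29 of the 48 annotated members (60.4%). This held for 42.5% of the other genes at 0 in DMSO and for 46.5% of all annotated genes. Downstream the members had the lowest of the 3 shares. The nearest downstream gene on the same strand was expressed for 33.3% of the members, 40.0% of the other genes at 0 in DMSO and 46.3% of all annotated genes. The gap was narrower for the nearest upstream protein-coding gene at any distance, with 77.1% of the members against 69.9% of the other genes at 0 in DMSO and 71.8% of all annotated genes. It was also narrower against all genes when the nearest upstream gene on either strand was taken, with 52.1% of the members against 37.8% and 48.7%. These shares are descriptions, and no test of them was made.

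With the window limited to 50 kb on GRCh38 and neighbours to protein-coding genes, a choice made after seeing the data, 22 of 48 members (45.8%) had an expressed upstream neighbour on the same strand, against 22.5% of the other genes at 0 in DMSO and 30.2% of all annotated genes. Downstream on the same strand the shares were 16.7%, 16.5% and 27.2%. Upstream on the opposite strand they were 20.8%, 15.5% and 25.7%. Protein-coding members alone had 48.6% upstream on the same strand, against 22.2% of the other protein-coding genes at 0 in DMSO and 34.8% of all annotated protein-coding genes. Among the rows left out of the rule by name, which met the same values, the share was 46.8%. The reverse rule, 0 in all compound 28 libraries and at least 20 in each DMSO library, was met by 17 rows, or 0.0526% of all gene rows against 0.303% for the rule of the members before names were left out. None of the 9 annotated genes kept from it had such an upstream neighbour within 50 kb.

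**Figure D2:**
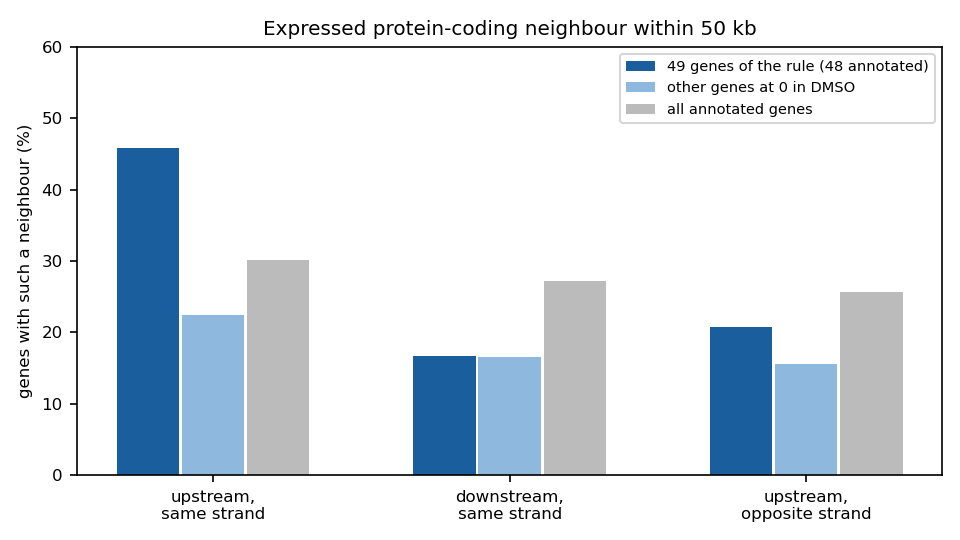
Percent of genes with a protein-coding neighbour within 50 kb that reached 1 CPM in DMSO, by the neighbour's side and strand, for the annotated members, the other genes at 0 in DMSO and all annotated genes (no error bars, each bar is a share of genes). The members' bar upstream on the same strand stands at 45.8%, against 22.5% and 30.2%, while their other bars stand at 16.7% and 20.8%.

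The upstream neighbours themselves did not all move one way. Of 35 distinct tested genes that lay next upstream on the same strand and were no members, 20 were higher in compound 28 (57.1%, background 35.5%), 7 were lower (20%, background 37.3%) and 8 did not pass the test. Their median log2 change was 0.58, against -0.03 over all genes tested. Some of the higher calls were fixed in advance. A row before SOD1P1 held no read in DMSO and met the values of the rule, but was left out by name. Others, such as OR7E100P before BTLA with 0.0211 CPM in DMSO, passed the filter on low values only through compound 28. Downstream neighbours gave 14 higher and 7 lower of 28 tested, with a median of 0.64. Nearest upstream genes on the opposite strand gave 16 higher and 8 lower of 31, with a median of 0.48. For the nearest protein-coding genes alone the counts were 18 higher and 12 lower of 38 upstream on the same strand, with a median of 0.30. They were 14 higher and 12 lower of 38 downstream, with a median of -0.05, and 16 higher and 18 lower of 43 upstream on the opposite strand, with a median of -0.19. Other scalings moved the median of all genes to between -0.48 and 0.45, so a neighbour's change within that range is relative to the scaling. The share called higher was above the background on each side and strand when genes of every kind were counted. It was near the background for protein-coding genes downstream (36.8%) and on the opposite strand (37.2%). Genes near 0 in DMSO raise these shares by selection, also downstream (GCM1 after SOD1P1, 0.0150 CPM in DMSO) and on the opposite strand (SERPINC1 before RNA5SP67, 0.0277 CPM). How much of the excess they make up was not tested. With library totals 14 upstream neighbours of every kind were higher and 11 were lower, and with upper-quartile factors 28 were higher and 5 were lower.

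Different patterns stood side by side among the 22 pairs within 50 kb, of which 11 neighbours were higher, 5 were lower and 6 did not pass the test. In the first, the neighbour was higher. SCG5, a chaperone of secretory cells that lies before GREM1, had 944.5, 1162 and 891 normalized counts in compound 28 and 118, 114 and 89.6 in DMSO, and it rose by 3.21 on the log2 scale (SE 0.16, adjusted p = 1.0e-07, limma). RPS7, a ribosomal protein gene before COLEC11, had 47911, 44394 and 43722 in compound 28 and 24222, 23078 and 20224 in DMSO (log2 change 1.01). Both groups were apart in every library for SCG5 and for RPS7. FBXL20, an F-box gene before STAC2, averaged 7659 ± 323 in compound 28 and 4037 ± 219 in DMSO (SD, n = 3 each, log2 change 0.92). DOCK2, a leukocyte motility gene before FOXI1, averaged 19401 ± 2344 in compound 28 and 8559 ± 2032 in DMSO (log2 change 1.20). EEF1B2, an elongation factor gene before GPR1-AS, rose by 1.00, RPL7 before FAM213AP2 by 1.15, TXNDC12 before RAB3B by 0.45 and RANBP17 before TLX3 by 0.68, all on the log2 scale. The remaining neighbours that rose were RALY before RPS2P1, LMAN1 before CPLX4 and ZBTB37 before RNA5SP67, with log2 changes of 0.49, 0.54 and 0.76.

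In the second pattern the neighbour was lower while the member appeared. ATG3, an enzyme of autophagy that is the nearest protein-coding gene before BTLA, had 376, 447 and 376 normalized counts in compound 28 and 2094, 2015 and 2138 in DMSO. It fell by 2.38 on the log2 scale (SE 0.11, adjusted p = 5.3e-08, limma), the largest fall of the 22, while BTLA averaged 184 in compound 28. Nearer to BTLA on the same strand is OR7E100P, an olfactory receptor pseudogene, which had 16.2, 15.1 and 13.99 in compound 28 and 1.16, 0 and 0.862 in DMSO (log2 change 3.34). TBC1D15, before TPH2, averaged 1106 ± 101 in compound 28 and 2170.3 ± 212 in DMSO (SD, n = 3 each) and fell by 0.97. SCYL2, before SLC17A8, averaged 1215 ± 99.4 in compound 28 and 2088 ± 254 in DMSO and fell by 0.78. NEPRO, before CD200R1, fell with a log2 change of -0.27.

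In the third pattern the neighbour passed no test. SFT2D1, a vesicle transport gene before PRR18, had 2923, 3132 and 3306 normalized counts in compound 28 and 3116, 3022 and 2738 in DMSO, and the groups overlapped (log2 change 0.08, adjusted p = 0.46, limma). PRR18, the most abundant member, thus followed a gene whose libraries did not separate by group. CNOT2 before KCNMB4 had a log2 change of -0.17, DNAJB11 before AHSG one of 0.04, VAMP4 before MYOC one of -0.21 (with PFN1P1, a pseudogene, nearer to MYOC and higher by 1.59), G3BP2 before CDKL2 one of 0.32 and CD70 before CLIC4P2 one of -0.10. A p that misses the threshold does not show that these genes were equal in both groups.

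**Figure D3:**
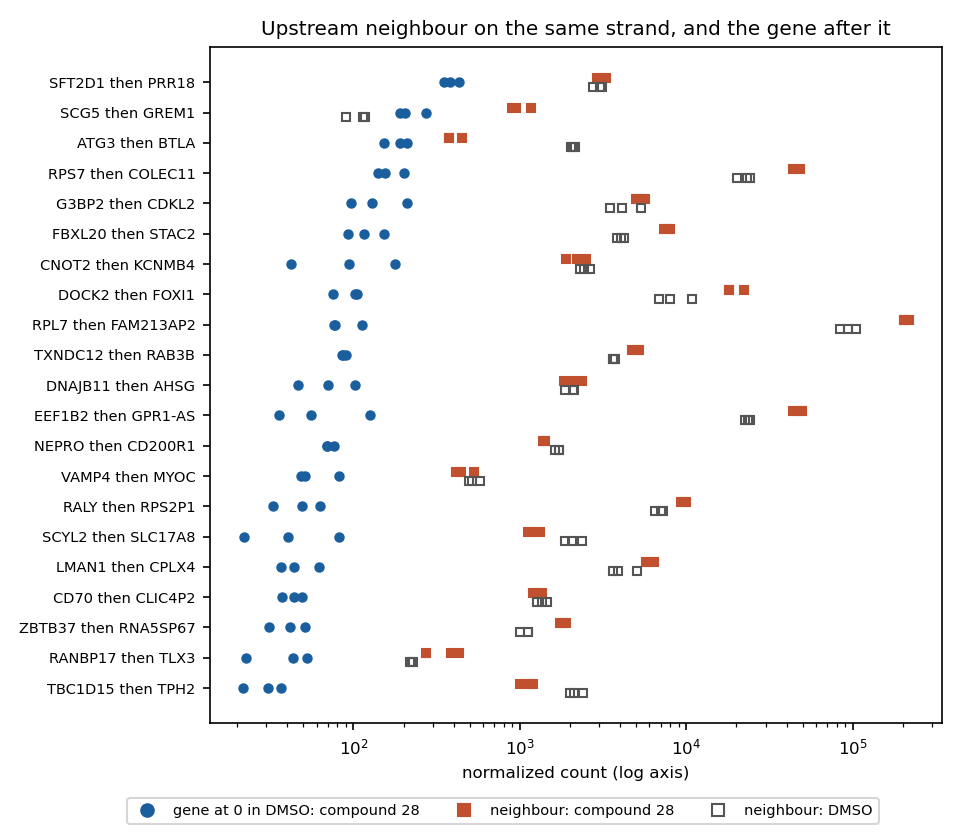
Normalized counts (log axis) for 21 of the 22 pairs within 50 kb, with the member in the 3 compound 28 libraries (circles; its DMSO values are 0 and are not drawn) and its upstream protein-coding neighbour in compound 28 (filled squares) and DMSO (open squares). For SCG5 the filled squares lie to the right of the open ones, for ATG3 to the left, and for SFT2D1 they overlap, while GREM1, BTLA and PRR18 are each present in compound 28.

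The remaining members had no expressed protein-coding neighbour within 50 kb before them. Genes that overlap a member were not taken as neighbours, so OR2AE1, which lies within the expressed gene TRIM4, is among these members. GHSR follows TNFSF10, the gene of the death ligand TRAIL, more than 50 kb away, which had 20.6, 37.7 and 7.77 normalized counts in compound 28 and 95.5, 77.7 and 113 in DMSO (log2 change -2.29, adjusted p = 0.0014, limma). BZW1P1 in turn is the next gene after GHSR on its strand, the only such pair among the members, and both were lowest in the third compound 28 library. ODF4 follows the protein-coding gene ARHGEF15, which averaged 19.9 ± 12.2 in compound 28 and was at 0 in DMSO (SD, n = 3 each). SEC14L3 follows its paralog SEC14L4, which averaged 1.43 ± 0.153 in compound 28 and was at 0 in DMSO. HTR4 follows SH3TC2, which averaged 3.37 ± 1.14 in compound 28 and 11.6 ± 5.72 in DMSO (SD, n = 3 each). WFIKKN2 follows LUC7L3, a splicing factor gene beyond the window that averaged 6701 ± 420.3 in compound 28 and 8022 ± 668 in DMSO and fell by 0.26 on the log2 scale. TSPYL5 follows the ribosomal protein gene RPL30, also beyond the window, which averaged 48737 ± 1251 in compound 28 and 19827 ± 1947 in DMSO and rose by 1.30. PRLHR follows CACUL1, with a log2 change of 0.17 that did not pass the test, CYP3A43 follows ZSCAN25, which fell by 1.11, and FRMPD1 follows POLR1E, which fell by 0.43, each beyond the window. Across the 48 members, the mean of a member and that of its upstream protein-coding neighbour in compound 28 had a Spearman rho of 0.40, a description in which both values share the same 3 libraries. The rule had cut the members' values at 20. No rho was taken for other neighbours or other genes, so this value is no support for a link with the upstream gene.

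Overlapping genes add a further limit, because the strand setting of the counting is not given in the sources used here. On the opposite strand 13 members were overlapped by another gene of the table, and for 10 of them by a gene that was itself at 0 in DMSO. PANDAR had 42.6, 34.0 and 38.9 normalized counts in compound 28, and LAP3P2, which lies across it on the other strand and is also a member, had 35.3, 26.4 and 31.1, both with 0 in DMSO. The order of the libraries was the same in both, and without the strand setting the reads of these partners cannot be told apart. MYOCOS, opposite MYOC, had 166, 270.4 and 119.7 in compound 28 and 0, 6.47 and 0 in DMSO, and both it and MYOC were highest in replicate 2. On the same strand 4 members were overlapped. OR2AE1 lies within TRIM4, which had 1929, 1779 and 1968 in compound 28 and 2110, 2284 and 2205 in DMSO.

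The threshold of 20 divides a continuum. Just inside it, OR11M1P, MOBP and SLC22A2 each had a lowest compound 28 value of 20.2. Just outside it, C2orf66, RPL5P7 and LMAN1L each had a lowest value of 17.6 and 0 in DMSO. In all, 2806 genes were at 0 in the 3 DMSO libraries, and 2708 of them did not reach 20 in every compound 28 library. With a single read allowed over the DMSO libraries the rule gave 97 genes. Among the genes so added, named after their values were seen, KRT8P11 averaged 552 and LRCOL1 314 normalized counts in compound 28, so that LRCOL1 lay between PRR18 and GREM1 in mean.

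In their content of CG dinucleotides, the members' promoters were closer to those of other silent genes than to the average promoter. RefSeq promoters, from 250 bases before to 50 bases after the start, were found for 28 of the 49 genes, all protein-coding. The ratio of observed to expected CG dinucleotides in the 250 bases before the start had a median of 0.283, against 0.383 for 450 other protein-coding genes at 0 in DMSO and 0.737 for 15843 protein-coding genes in all. It was below 0.4 in 17 of 28 members (60.7%), against 51.1% and 26.0%. CG-rich promoters, with at least 55% G and C and a ratio of at least 0.65, numbered 4 of 28 (14.3%), against 28.2% and 53.4%. With 28 promoters, the gap to the other silent genes is a matter of a few genes, and it was not tested.

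**Figure D4:**
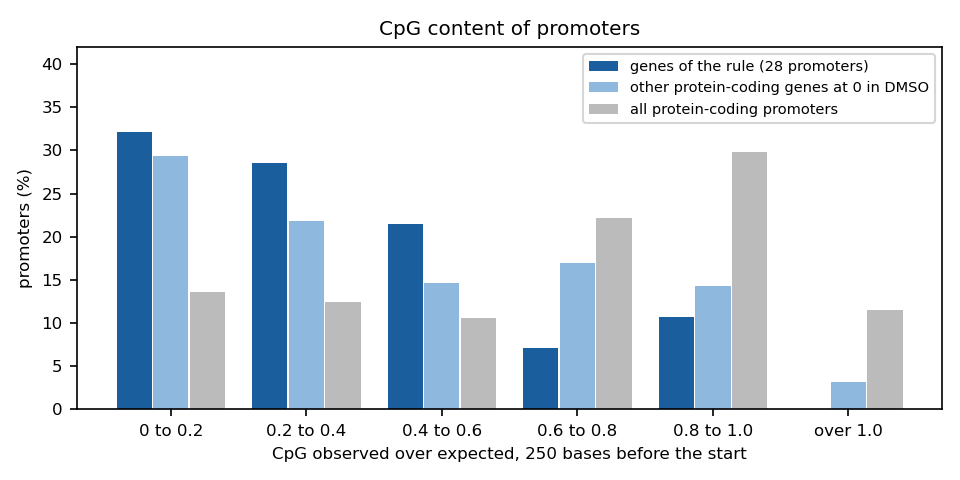
Percent of promoters (vertical axis) by the ratio of observed to expected CG dinucleotides in the 250 bases before the start (horizontal axis, 6 bins), for 28 members, the other protein-coding genes at 0 in DMSO and all protein-coding promoters. The members are most frequent in the bin from 0 to 0.2, with 32.1%, and hold no promoter over 1.0, where all protein-coding promoters hold 11.5%.

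Short motifs, none of which contains another, were searched on both strands of the 250 bases before the start. The TATA motif TATAAA was found in 2 of 28 (7.14%), against 13.6% of the other silent protein-coding genes and 9.23% of all protein-coding genes. CCAAT was found in 28.6%, against 31.6% and 34.5%, and GGGCGG, the core of the SP1 motif, in 39.3%, against 38% and 56%. TGANTCA, the AP-1 motif, was found in 3.57%, against 9.33% and 5.04%. Neither CACGTG nor TGACGTCA was found in any of the 28, against 3.78% and 1.33% of the other silent protein-coding genes and 7.84% and 2.32% of all. The TATAAA matches lay before ACTC1 and TPH2, and the 60 bases before each start are shown with the match in capitals, 5′ to 3′ on the gene's strand, from RefSeq on GRCh38.p14 (chr15:34795550-34795609, minus strand, and chr12:71938785-71938844, plus strand).
ACTC1: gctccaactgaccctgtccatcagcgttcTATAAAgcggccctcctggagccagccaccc
TPH2: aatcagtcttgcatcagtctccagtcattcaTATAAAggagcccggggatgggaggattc
In both the match lay on the gene's own strand, in the 60 bases next to the start. ACTC1 follows AQR at more than 50 kb, which averaged 1535 ± 26.4 normalized counts in compound 28 and 2194 ± 397 in DMSO (SD, n = 3 each) and fell by 0.50 on the log2 scale, while TPH2 follows TBC1D15 within 50 kb. The 48 annotated members lay on 19 chromosomes.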

How the data were processed

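Polyadenylated RNA of 6 libraries, 3 given compound 28 and 3 given DMSO, was sequenced. The submitters' processing notes list HTSeq, HISAT2, fastp, SAMtools and StringTie, and name GRCh37 and hg19 as builds. Tool versions, and whether HTSeq used strand, are unstated: not given in the sources used here. What the authors deposited was a normalized signal per gene and library, which the values show to be reads divided by a size factor of the library. Divided by the value of 1 read, 100% of the values came out whole (tolerance 0.01), which gave back the reads. Further deposited columns, per the file headers, hold a log2 fold change, its error, a test statistic (a score) and p-values. Of these, the log2 fold change was used where named. The 5 HTSeq counter rows held 43.1% ± 3.36 of reads in compound 28 and 31.9% ± 1.36 in DMSO (SD, n = 3 each) and were left out of totals and tests. Another 8 rows with date-like names were kept and not named.

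The 49 genes and all lists were chosen with earlier results of these data known. Because the values were normalized, limma 3.58.1 (trend) on log2(normalized count + 1) was the test, in R 4.3.3, with Benjamini-Hochberg adjustment over 18278 genes kept by filterByExpr of edgeR 4.0.16. DESeq2 1.42.0 and edgeR's quasi-likelihood test on recovered reads were alternatives. The calculation was tested on simulated data. Named were the 24 members with the highest mean, the most abundant member of each tissue list and class, members next to each other on 1 strand, 3 genes on either side of the threshold, the 3 with the most unequal compound 28 libraries, and upstream neighbours. Other names were chosen after values were seen. The neighbour of 1 pair is counted but not reported here. Gene order, strand and length came from GENCODE release 29 on GRCh38, in which 95.6% of rows were found by name, and promoters from RefSeq. Gene order may differ from that on the submitters' build. Limits and intervals cover counting error only.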

Additional observations from a re-analysis of the deposited data

Results flagged for a closer look

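Reads on no annotated gene lay outside the comparisons by gene and were more frequent in the treated libraries than in the controls. They came to 22.9 ± 2.34 per 100 reads on genes in compound 28 and to 16.4 ± 1.91 in DMSO (SD, n = 3 each), with 20.2 the lowest compound 28 library and 18.0 the highest DMSO library. As a percent of all reads the groups overlapped, with 13.0% ± 1.22 in compound 28, 12.07% the lowest library, and 11.1% ± 1.10 in DMSO, 12.11% the highest library. Where in the genome these reads lay was not analysed here.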

How the results depend on the processing

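The number of genes that met the rule depended on its settings. It was 90 with at least 10 normalized counts in each compound 28 library, 17 with at least 50, 97 with at most 1 read summed over the DMSO libraries and 98 without the exclusion of names, the last chosen after seeing the data. These follow from the looser or stricter rule. Leaving out 1 library gave 54 to 80 genes, with 80 without DMSO replicate 1 and 78 without DMSO replicate 2. Scaling by library totals only gave 38 genes, TMM factors 46 and upper-quartile factors 54. Over all genes, library totals only gave 4218 higher and 9302 lower, and upper-quartile factors gave 9194 higher and 4490 lower, so that the higher share of calls was 48.8% with the scaling of the authors, 31.2% with library totals and 67.2% with upper quartiles. Of the upstream neighbours, 14 were higher and 11 lower with library totals, and 28 were higher and 5 lower with upper quartiles. Over all genes tested, the median log2 change stood at -0.48 with library totals, -0.15 with TMM and 0.45 with upper quartiles. These factors shift all genes of a library alike, so the distance from the median of all genes to that of the upstream neighbours, 0.62 with the scaling of the authors, hardly depends on them. It was 0.52 without DMSO replicate 1 and 0.55 without DMSO replicate 3. This distance also takes in neighbours near 0 in DMSO that passed the filter on low values only through compound 28. Leaving out 1 library gave 6253 to 6912 genes higher and 6242 to 6837 lower, and 19 to 22 upstream neighbours higher and 7 to 8 lower. Same-numbered libraries had correlations of -0.03, 0.07 and 0.09 after removal of group means, so the numbers were not shown to pair them. With the replicate block, 6511 genes were higher, 6769 were lower, and the neighbours gave 20 and 7, as without it. An expressed upstream neighbour on the same strand was found for 24 members at 5 CPM (50%, against 33.8% of other genes at 0 in DMSO and 36.6% of all), for 22 at 10 CPM (45.8%, against 29.6% and 32.3%) and for 20 within 50 kb (41.7%, against 20.8% and 29.1%). With the nearest protein-coding gene it was 37 members on the same strand (77.1%, against 69.9% and 71.8%) and 37 on either strand (77.1%, against 65.8% and 72.4%), and with a gene of any kind on either strand 25 (52.1%, against 37.8% and 48.7%). Members held no read in DMSO. The 3 reads over the 3 DMSO libraries used as a floor are an approximate limit on the expected count, for counting error alone.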
